A study of Mus musculus with 2 samples.

Results

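Cell cycle genes were followed across the cell types of 2 mouse pancreatic tumours by single-cell RNA sequencing. The members were chosen by gene symbol: 14 genes of DNA synthesis (S members) and 25 genes of the G2 phase and mitosis (G2/M members), 39 of the 32285 genes in the deposited tables. All 39 were found, and each had at least 1 unique molecular identifier (UMI, 1 counted RNA molecule) in every cell class compared below, in both libraries. KPC cells are a mouse pancreatic cancer line from genetically engineered mice with a Pdx-1-Cre transgene, which is expressed in the pancreatic epithelium. Lentivirus carried either a control hairpin, in KPC-shV cells, or one that targets Zeb1, in KPC-shZEB1 cells. After selection the stable cells were injected into the pancreas, and each group is represented by a single tumour (1 library). The labels give no strain, sex, age or drug; the study's methods name C57BL/6J mice for allografts of this kind, and its results describe gemcitabine treatment of tumour-bearing mice in the single-cell section. Only the injected cells carried the hairpin, so fibroblasts, vessels and leukocytes came from the host mouse in both groups.

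With 1 library per group, mouse, tumour, dissociation, library and group could not be told apart, and no test was possible. Pairs of values give the library labelled KPC-shV first and the library labelled KPC-shZEB1 second, and a ratio is the second over the first. Ranges in parentheses are 95% intervals that cover counting error alone and leave out the difference between mice and the clustering of UMIs within cells. The targeted gene did not match the label: Zeb1, a transcription factor of epithelial-mesenchymal transition, had 166 and 187 UMIs per 1000000 UMIs (CPM) among tumour-like cells, with a ratio of 1.13 (1.09–1.17). Every direction below is therefore that of the library labelled KPC-shZEB1 and not of a measured loss of Zeb1. After filtering, 11394 and 12113 cells with medians of 3721 and 4254 UMIs remained, and 36 of their barcodes occurred in both libraries. The cells formed 27 clusters, which were assigned to classes by marker genes, without the cell cycle genes among the genes used for clustering. Tumour-like cells had UMIs of all 10 tumour markers, with summed levels of 4387 and 5118 CPM.

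A dividing cell first copies its DNA and then separates the copies. At the start of S phase, E2F transcription factors are released from the RB protein and switch on genes that load the replicative helicase on DNA and supply nucleotides. In G2 and mitosis, a second wave of genes, among them the mitotic cyclins, kinesin motors and centromere proteins, is switched on through promoters with a cell cycle homology region (CHR) and CCAAT boxes, and repressed in resting cells by the DREAM complex. Many of these transcripts disappear within a cell cycle after division. Their presence is therefore used to mark proliferating cells, whereas mature neutrophils no longer divide. Promoters with CHR and E2F letters are printed here because these letters were found at unlike rates in the S and G2/M members, which are described separately below.

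Promoters from 250 bases before to 50 bases after the start site were found for 34 members (12 S, 22 G2/M) among 27025 genes of the RefSeq table (GRCm38.p6). Both strands were searched for the CHR letters TTTGAA or TTTAAA, the E2F letters TTCCCGC or TTTGGCGC or TTTCGCGC, and the letters CCAAT. CHR letters were present in 20 of 22 G2/M promoters (90.9%), 5 of 12 S promoters (41.7%) and 27.8% of all promoters. E2F letters showed the opposite order, with 2 of 22 G2/M promoters (9.09%), 7 of 12 S promoters (58.3%) and 5.40% of all. CCAAT letters did not separate the phases: they were in 18 of 22 G2/M and 10 of 12 S promoters (81.8% and 83.3%), against 37.9% of all. The 250 bases upstream of the start site are given for 3 G2/M members and 2 S members. Capitals mark CHR, E2F or CCAAT letters on either strand (reverse forms are TTCAAA for CHR, GCGGGAA or GCGCCAAA or GCGCGAAA for E2F and ATTGG for CCAAT), and overlapping E2F matches run together.
Top2a (chr11:99024190-99024439, minus strand): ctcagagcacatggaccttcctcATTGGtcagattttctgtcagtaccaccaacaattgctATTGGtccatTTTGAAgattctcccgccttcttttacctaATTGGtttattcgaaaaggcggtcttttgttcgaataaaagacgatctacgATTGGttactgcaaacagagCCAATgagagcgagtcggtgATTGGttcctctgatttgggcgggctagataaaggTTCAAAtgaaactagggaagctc
Ccnb1 (chr13:100786487-100786736, minus strand): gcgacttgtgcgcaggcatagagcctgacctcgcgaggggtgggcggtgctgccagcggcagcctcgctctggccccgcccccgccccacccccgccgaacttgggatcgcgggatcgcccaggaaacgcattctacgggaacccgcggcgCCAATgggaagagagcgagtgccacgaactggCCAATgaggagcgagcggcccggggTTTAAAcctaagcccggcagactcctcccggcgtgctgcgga
Cdc20 (chr4:118437344-118437593, minus strand): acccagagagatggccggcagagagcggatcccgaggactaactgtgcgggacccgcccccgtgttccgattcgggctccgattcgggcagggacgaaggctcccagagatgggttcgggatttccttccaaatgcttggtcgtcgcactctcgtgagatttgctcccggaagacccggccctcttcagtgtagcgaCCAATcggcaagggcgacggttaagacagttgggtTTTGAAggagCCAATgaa
Mcm6 (chr1:128359706-128359955, minus strand): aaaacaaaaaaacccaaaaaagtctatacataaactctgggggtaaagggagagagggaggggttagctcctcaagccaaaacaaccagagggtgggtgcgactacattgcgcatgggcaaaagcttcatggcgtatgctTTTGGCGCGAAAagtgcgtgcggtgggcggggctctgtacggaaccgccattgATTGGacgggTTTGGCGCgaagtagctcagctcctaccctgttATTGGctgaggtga
Mcm5 (chr8:75109259-75109508, plus strand): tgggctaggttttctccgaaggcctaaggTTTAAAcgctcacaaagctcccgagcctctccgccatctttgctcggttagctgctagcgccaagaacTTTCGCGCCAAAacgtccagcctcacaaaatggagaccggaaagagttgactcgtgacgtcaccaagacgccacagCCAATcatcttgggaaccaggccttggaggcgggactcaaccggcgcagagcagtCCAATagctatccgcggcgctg

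Top2a, which encodes the topoisomerase that untangles DNA before division, has 2 CHR matches, at 179 and 23 bases before the start site, and 6 CCAAT matches between 227 and 58 bases before it. In Ccnb1 (cyclin B1, partner of the mitotic kinase Cdk1) and Cdc20 (activator of the anaphase-promoting complex), 1 CHR match lies near the start site beside CCAAT. Mcm6 and Mcm5, subunits of the MCM helicase, have E2F matches, and Mcm5 also has CHR letters. The G2/M promoters with E2F letters were those of Cdk1 and Kif15. These matches are letters, not measured binding sites.

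The members were abundant in T-like, NK-like, tumour-like and dendritic-like cells of both libraries, low in B-like cells and lowest in granulocyte-like cells. With KPC-shV the summed level of the 39 members was 1708 CPM (1653–1763) in T-like, 1438 CPM in NK-like, 1421 CPM in dendritic-like and 1365 CPM in tumour-like cells. NK-like and dendritic-like cells, and dendritic-like and tumour-like cells, had overlapping intervals. Monocyte-macrophage-like cells followed with 922 CPM, fibroblast-like cells with 609 CPM, endothelial-like cells with 539 CPM and B-like cells with 504 CPM, the last pair with overlapping intervals. Granulocyte-like cells had 280 CPM (273–287). Of the granulocyte precursor genes, Elane, Mpo and Ctsg of early granules had 8 UMIs or fewer in this class in either library. Prtn3, also of early granules, had 333 and 231 UMIs. Ltf (1178 and 748 UMIs), Chil3 (972 and 723), Ngp (705 and 499), Camp (516 and 203) and Cebpe (154 and 112) from the same list were detected as well. In the library labelled KPC-shZEB1 the order was NK-like (1950 CPM), endothelial-like (1818 CPM), tumour-like (1723 CPM), T-like (1622 CPM), dendritic-like (1449 CPM), monocyte-macrophage-like (997 CPM), fibroblast-like (640 CPM), B-like (550 CPM) and granulocyte-like cells (401 CPM). There, only the NK-like and endothelial-like intervals overlapped between neighbours. Endothelial-like cells ranked the seventh with KPC-shV and the second with KPC-shZEB1.

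**Figure D1:**
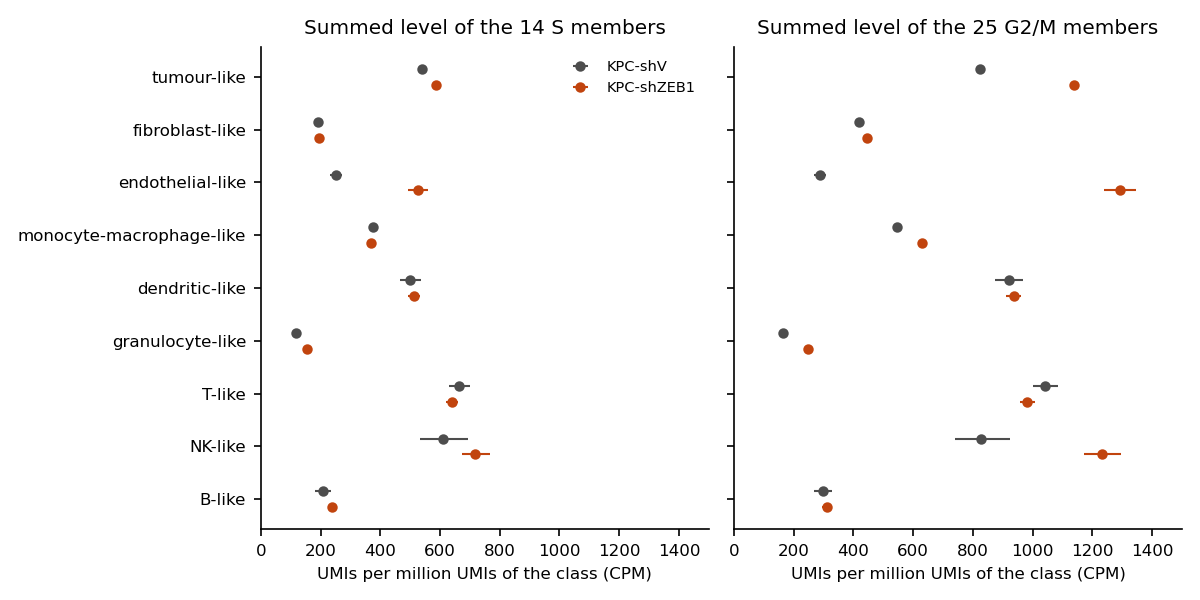
Summed levels of the 14 S members (left) and the 25 G2/M members (right), in UMIs per 1000000 UMIs of the class (CPM), by cell class and library; points are 1 library each and lines are exact Poisson 95% intervals for counting error only. G2/M levels of tumour-like (824 and 1137 CPM) and endothelial-like cells (287 and 1292 CPM) lie apart between the libraries, while those of dendritic-like cells (921 and 936 CPM) nearly coincide.

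The class with the highest level was often not the same for S and G2/M members, nor in both libraries. Only the highest values were counted, without intervals, and some gaps were small. With KPC-shV, Tyms had 36.5 CPM in NK-like and 35.4 CPM in T-like cells. In that library only 6 members had 30 UMIs or more in NK-like cells. Whether the class depends on the phase was not tested. In the library labelled KPC-shV, 10 of 25 G2/M members peaked in tumour-like cells, 7 in T-like, 5 in NK-like and 3 in dendritic-like cells. The 14 S members peaked instead in NK-like (6), T-like (5) and dendritic-like cells (2), with 1 in tumour-like cells. In the library labelled KPC-shZEB1, 11 G2/M members peaked in endothelial-like and 9 in tumour-like cells, and 7 S members in NK-like cells. G2/M members made up 60.4% and 66.0% of member UMIs in tumour-like cells, 61.1% and 60.6% in T-like cells and 68.8% and 69.8% in fibroblast-like cells.

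A cell was counted as cycling when it held 5 or more member UMIs. At their own depth, 75.2% and 79.1% of tumour-like cells, 72.3% and 78.7% of fibroblast-like cells, 28.7% and 30.0% of T-like cells and 1.18% and 2.33% of granulocyte-like cells passed. These shares followed depth, because the median tumour-like cell held 23706.5 and 23800 UMIs, the median T-like cell 5315 and 4822 and the median granulocyte-like cell 3148 and 2905.5. Near the limit, 57 and 56 tumour-like cells held 4 member UMIs and 52 in each library held 5. The share was therefore computed for 2000 UMIs drawn from each cell, averaged over all possible draws, leaving out cells with fewer (164 and 142 tumour-like cells).

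At 2000 UMIs, cycling cells were 16.3% (14.4–18.4) and 21.6% (19.4–23.9) of tumour-like cells, a ratio of 1.32 (1.11–1.59). Fibroblast-like cells, which at their own depth looked as active as tumour-like cells, had shares of only 4.65% and 4.81%. T-like cells had 8.94% (6.02–12.7) and 7.07% (5.55–8.87), a ratio of 0.792 (0.503–1.28). The order of the libraries within T-like cells thus changed with depth, from 1.04 at own depth, and neither ratio lay outside its counting error. Monocyte-macrophage-like cells had 6.97% and 7.47% (ratio 1.07, 0.837–1.37), although at own depth their shares of 50.4% and 60.9% had a ratio of 1.21 (1.11–1.32). Dendritic-like cells had 11.3% and 13.9%, NK-like cells 7.54% and 9.14% and B-like cells 1.31% and 0.941%. Granulocyte-like cells had 0.239% and 0.469%. Endothelial-like cells stood out with 3.80% (1.32–8.37) and 16.4% (8.86–26.6), from 143 and 76 cells deep enough to be used. Among the UMIs of cells counted as cycling, G2/M members exceeded S members in 69.5% and 73.3% of tumour-like cells and in 63.2% and 64.1% of T-like cells.

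**Figure D2:**
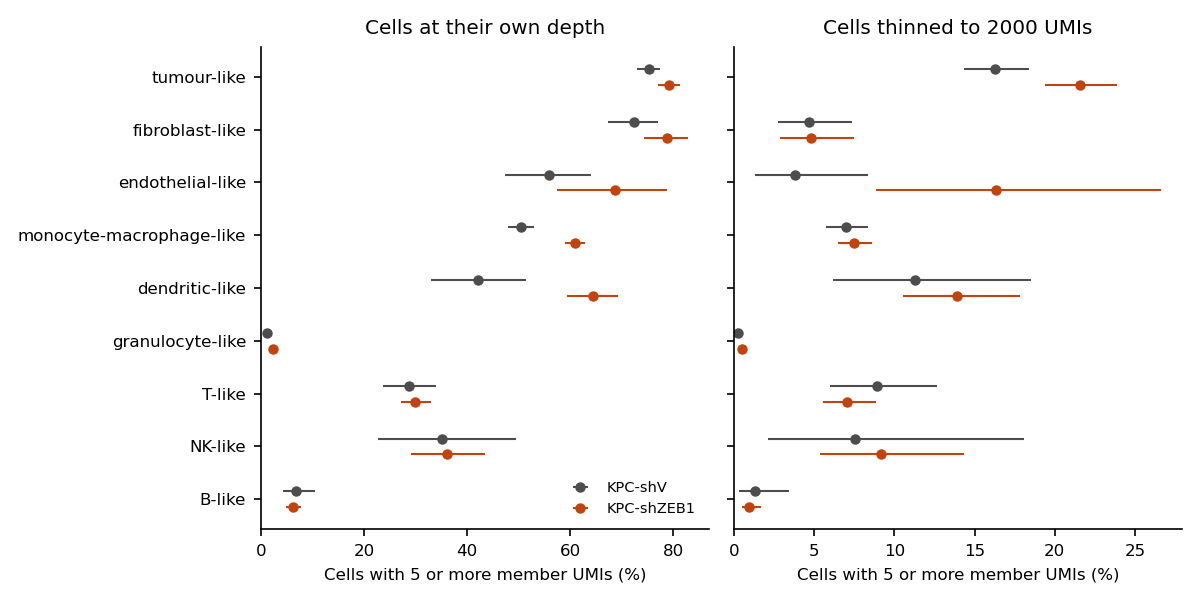
Percent of cells with 5 or more member UMIs by class and library, at each cell's own depth (left) and for 2000 UMIs per cell (right, other axis range); lines are exact 95% binomial intervals for counting error only. Fibroblast-like cells sit at 72.3% and 78.7% on the left and at 4.65% and 4.81% on the right, where tumour-like cells reach 16.3% and 21.6%.

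In tumour-like cells, nearly all members had a higher level in the library labelled KPC-shZEB1, and the difference was larger for mitotic genes than for replication genes. G2/M members summed to 824 and 1137 CPM, a ratio of 1.38 (1.36–1.40), and S members to 541 and 586 CPM, a ratio of 1.08 (1.06–1.10). The G2/M part of member UMIs was 5.64 percentage points higher (5.06–6.22). Of the 39 members, 36 had a ratio above 1, including 25 of 25 G2/M and 11 of 14 S members. Of all 16447 genes tested, 9344 had a ratio above 1. The median log2 ratio was 0.37 for G2/M members, 0.17 for S members and 0.04 for all 16447 genes with at least 30 UMIs. A ratio of at least 1.5 was reached by 7 members, all G2/M, or 7 of 39 beside 13.0% of all genes tested, and none was lower by 1.5-fold, beside 4.32% of all genes.

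Among mitotic motors, Kif20b (a kinesin of cytokinesis) had 17.3 and 29.4 CPM, the largest ratio of any member (1.70, 1.53–1.88). Kif11, which pushes spindle poles apart, had 21.7 and 31.9 CPM and Kif23, of the central spindle, 44.1 and 58.8 CPM. Kif15 (18.4 and 20.7 CPM) differed least among the motors. Top2a had 84.3 and 143 CPM (1.69, 1.62–1.77), and Mki67, which coats mitotic chromosomes and encodes the proliferation marker Ki-67, had 68.0 and 113 CPM (1.66, 1.58–1.75). These 3 were the largest ratios.

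The kinetochore genes Cenpe and Cenpf had 34.9 and 55.7 CPM and 49.5 and 79.0 CPM, with ratios of 1.59 and 1.60. Cenpa, the centromeric histone, had 50.7 and 54.1 CPM, so these centromere genes did not move by the same amount. Of the mitotic cyclins, Ccnb1 had 16.4 and 25.7 CPM (1.57), Ccnb2 22.9 and 29.8 CPM (1.30) and Ccna2 18.9 and 22.6 CPM (1.20). Their kinase Cdk1 had 28.0 and 30.9 CPM (1.11). The chromosomal passenger complex was split: Birc5 (survivin) had 35.6 and 54.9 CPM (1.54), whereas its kinase Aurkb had 8.43 and 8.64 CPM (1.02). Aurka, the spindle pole kinase, and Tpx2, its activator, had ratios of 1.04 and 1.07. The checkpoint kinases Bub1 and Bub1b had 1.31 and 1.13, Plk1 had 1.36, and Prc1, which bundles spindle microtubules, had 50.5 and 74.7 CPM (1.48). Cdc20, Nusap1 and Ube2c, the last a ubiquitin-conjugating enzyme of mitotic exit, ranged from 1.20 to 1.26.

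Replication genes were mixed. The helicase subunits Mcm2 (31.6 and 27.7 CPM, 0.876, 0.802–0.956) and Mcm6 (67.4 and 60.7 CPM, 0.901) and the sliding clamp Pcna (111 and 107 CPM, 0.964) had the smallest ratios of all members. Their partners Mcm3, Mcm4 and Mcm7 had 1.12, 1.04 and 1.13, and Mcm5 1.29. Pclaf, which binds Pcna, had 52.3 and 59.2 CPM. At the other end were E2f8, a repressor that closes the E2F programme (11.1 and 16.5 CPM, 1.49), Uhrf1, which carries DNA methylation through replication (25.2 and 35.4 CPM, 1.40), the thymidylate synthase gene Tyms (30.8 and 40.5 CPM, 1.32) and the helicase loader Cdc6 (7.69 and 10.2 CPM, 1.32). Gins2 and Cdc45, which complete the helicase, had 1.14 and 1.11. Members with CHR and no E2F letters had a median ratio of 1.39 (21 genes, 0.876 to 1.70), and the 5 with E2F and no CHR letters had 1.13 (0.901 to 1.40). The 4 members with both had 1.13 and the 4 with neither 1.26. In T-like cells the same groups had medians of 0.993, 1.09, 0.795 and 0.971, so the order was not the same.

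**Figure D3:**
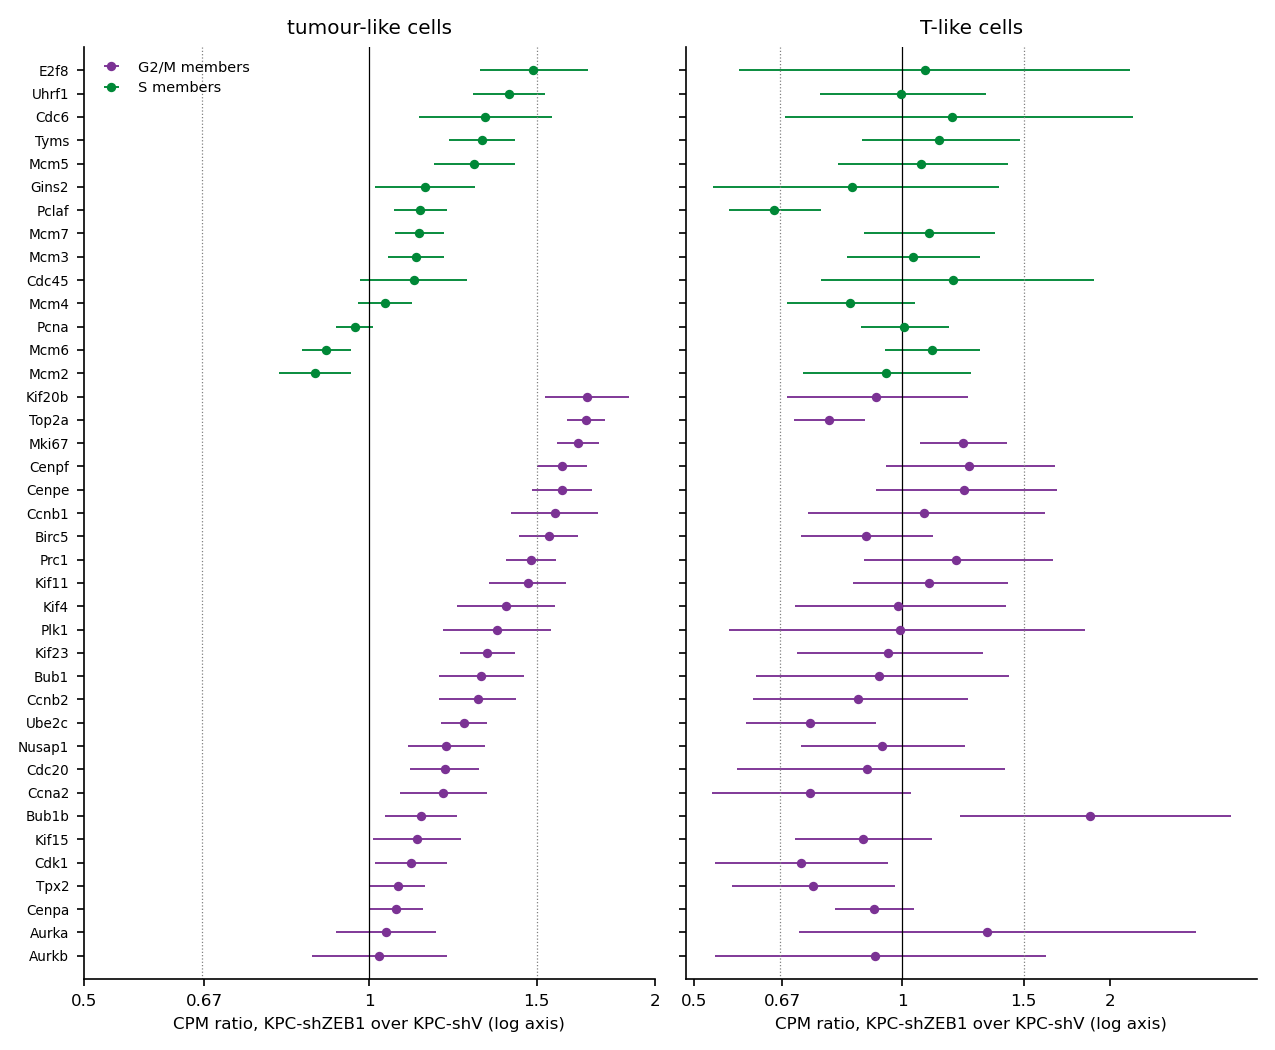
CPM ratio (library labelled KPC-shZEB1 over library labelled KPC-shV, log axis) of each of the 39 members in tumour-like cells (left) and T-like cells (right); lines are exact conditional 95% intervals for counting error only and dotted lines mark 1.5-fold either way. On the left, the G2/M members (purple) run from 1.02 (Aurkb) to 1.70 (Kif20b) and the S members (green) from 0.876 (Mcm2) to 1.49 (E2f8), while on the right most intervals cross 1.

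The size of the tumour difference depended on which barcodes were counted. Barcodes above 60000 UMIs, left out by the study's filter, numbered 289 and 217, and all held at least 5 member UMIs. Their G2/M level was 1791 and 1925 CPM and their S level 719 and 701 CPM, and 44.8% and 48.0% of them were cycling at 2000 UMIs. With these barcodes kept, the summed ratio in tumour-like cells was 1.10 in place of 1.26, the G2/M ratio 1.14, the G2/M part 2.21 percentage points higher and the number of members past 1.5-fold 0. The share ratio at 2000 UMIs was then 1.19 (1.03–1.39).

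The difference was also uneven between tumour-like clusters. In the cluster led by Fermt1, Krt20 and Apob (669 and 697 cells), G2/M members had 729 and 1086 CPM and S members 466 and 551 CPM, with cycling shares of 12.4% and 18.2%. In that led by Prg4, Cntn5 and Grem1 (485 and 181 cells), G2/M members had 865 and 936 CPM and S members 613 and 512 CPM, and the shares were 17.3% and 15.9%. A shallow cluster led by S100a14, Wfdc2 and Dbf4 (337 and 328 cells, medians of 2242 and 2260 UMIs) had the highest G2/M level in the library labelled KPC-shV, with 1730 and 1519 CPM. The member Ube2c was among its leading genes although it was kept out of clustering. A cluster led by Zfp804b, Ralyl and Pcdh9 came almost entirely from the library labelled KPC-shZEB1 (10 and 232 cells) and had 1377 and 1418 CPM of G2/M members, with a share of 30.0% in its 232 cells. Without it, the summed ratio was 1.19, the G2/M ratio 1.30, the share ratio 1.22 (1.00–1.48) and the members past 1.5-fold were 3. Without the shallow cluster the summed ratio was 1.29 and 8 members passed.

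Single members also differed between clusters. Mki67 had 57.0 and 114 CPM in the cluster led by Fermt1 (2.00, 1.86–2.15), 73.4 and 85.1 CPM in that led by Prg4 (1.16), 166 and 128 CPM in the shallow cluster (0.768) and 138 and 134 CPM in that led by Zfp804b. Top2a had ratios of 1.80, 1.37, 0.884 and 1.13 in the same order. Higher levels of Mki67 and Top2a were thus found in the Fermt1-led and Prg4-led clusters and not in the shallow one. In the cluster led by Zfp804b the 2 genes pointed opposite ways. Other members did not follow them in the cluster led by Prg4. There, Ccna2 (0.575), Aurkb (0.658), Mcm2 (0.742) and Pcna (0.777) were lower, while Ube2c (1.28) and Cenpe (1.19) were higher. The difference between clusters was not tested.

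**Figure D4:**
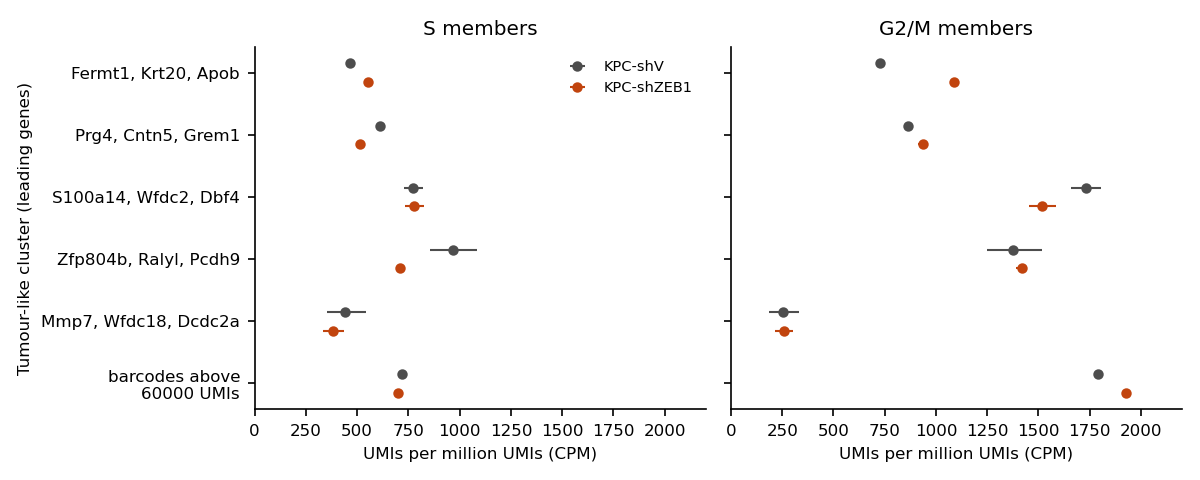
Summed S (left) and G2/M (right) member levels in CPM for each tumour-like cluster, named by its leading genes, and for the barcodes above 60000 UMIs that were left out of the classes; lines are exact Poisson 95% intervals for counting error only. The G2/M points lie furthest apart in the cluster led by Fermt1, Krt20 and Apob (729 and 1086 CPM), and the G2/M points of the barcodes above 60000 UMIs (1791 and 1925 CPM) lie to the right of every cluster, while their S points (719 and 701 CPM) do not.

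Other cell cycle genes, taken as whole lists that were chosen with earlier results of these data known, were also mostly higher in tumour-like cells. They were higher by less than the members for G2/M genes and by about as much for S genes. Among all 16447 genes tested, 9344 had a ratio above 1 and 13.0% were higher by 1.5-fold. Of 30 other S genes, 24 had a ratio above 1 (median log2 ratio 0.19) and 3 passed 1.5-fold: Rad51ap1 (4.35 and 7.32 CPM, 1.68), Prim1 (10.8 and 17.7 CPM, 1.64) and the DNA ligase gene Lig1 (29.7 and 45.1 CPM, 1.52). Dtl (0.703), Ccne1 (0.714) and Dut (0.790) were the lowest. Of 40 other G2/M genes, 37 had a ratio above 1 (median log2 ratio 0.27), led by Cdca2 (9.29 and 14.9 CPM, 1.61), Hmmr (23.2 and 36.4 CPM, 1.56) and Dlgap5 (1.45). Hjurp had 104 and 88.9 CPM (0.854), followed by Ckap2 and Kif20a at 0.98. The ribonucleotide reductase genes Rrm1 and Rrm2 had 1.22 and 1.10, the chromatin gene Hmgb2 1.14 and Foxm1, an activator of G2/M genes, 7.15 and 9.79 CPM (1.37).

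Upstream of S phase, the D cyclins were modestly higher, with ratios of 1.15 for Ccnd1, 1.26 for Ccnd2 and 1.18 for Ccnd3. Their partner Cdk6 had 459 and 1088 CPM (2.37), while Cdk4 had 161 and 142 CPM (0.883). Cdk6 was among the leading genes of the cluster led by Zfp804b, where it had 1343 and 2976 CPM, and without that cluster it had 452 and 581 CPM (1.29). Among CDK inhibitors, Cdkn2a had 273 and 387 CPM (1.42) and Cdkn2c 15.8 and 22.0 CPM (1.40). Cdkn1c had 23.0 and 12.5 CPM (0.543), the only inhibitor past 1.5-fold, and was at 46.8 and 46.6 CPM in the cluster led by Prg4, which held fewer cells in the library labelled KPC-shZEB1. Cdkn1a had 1.18, Cdkn1b 0.976, Cdkn2b 0.875 and Cdkn2d 0.893.

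In T-like cells, most members differed little between the libraries. S members had 665 and 639 CPM (ratio 0.961, 0.905–1.02), G2/M members 1043 and 982 CPM (0.942, 0.898–0.989) and all members together 0.950 (0.915–0.986). Of 39 members, 17 had a ratio above 1, beside 6432 of all 11262 genes tested. The median log2 ratio was -0.02 beside 0.05 for all genes. Past 1.5-fold were 1 member in each direction, beside 9.06% of all genes higher and 4.04% lower. Bub1b, the spindle checkpoint kinase, had 11.5 and 21.5 CPM (1.87, 1.21–3.00), followed by Aurka (5.98 and 7.93 CPM) and Cenpf (30.8 and 38.5 CPM). Pclaf had 120 and 78.1 CPM (0.653, 0.560–0.764), followed by Cdk1 (34.0 and 24.3 CPM) and Ccna2 (25.8 and 18.9 CPM). The familiar proliferation markers pointed opposite ways: Top2a had 190 and 149 CPM and Mki67 111 and 136 CPM. With doublets kept the summed ratio was 1.01, and without cells holding 3 or more UMIs of other classes' markers it was 1.19. The latter setting took out 24 of 28 and 48 of 58 T-like cells called cycling at equal depth.

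The small net difference in T-like cells was made of unequal T-cell classes, of which gamma-delta T-like cells (32 and 57 cells) are not described further. CD8 T-like cells (125 and 400 cells) had 2264 and 1752 CPM of all members, a ratio of 0.774 (0.737–0.813), and cycling shares of 16.4% (10.4–24.1) and 9.30% (6.60–12.6). Of 37 members with at least 30 UMIs, 12 were lower by 1.5-fold, beside 5.84% of all genes, and 1 was higher, beside 10.4%. Ube2c (91.1 and 34.7 CPM, 0.381), Cdc20 (24.2 and 10.8 CPM, 0.445) and Pclaf (166 and 85.5 CPM, 0.516) had the lowest ratios. Bub1b had 11.2 and 25.7 CPM (2.30), Mcm3 62.3 and 65.7 CPM and Cenpa 171 and 174 CPM. Top2a had 256 and 163 CPM, and Mki67 150 and 130 CPM.

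CD4 T-like cells (97 and 408 cells) had the opposite direction, with 880 and 1344 CPM (1.53, 1.39–1.69) and shares of 2.70% and 4.34%. Of 30 members, 12 were higher by 1.5-fold, beside 14.6% of all genes, and 0 were lower, beside 6.29%. The limit of 30 UMIs applied to both libraries together. Cdc20, Prc1 and Nusap1 reached it only through the library labelled KPC-shZEB1. Cdc20 had 1 and 32 UMIs (ratio 8.26, 1.38–336), Prc1 3 and 44 UMIs (3.79, 1.21–19.1) and Nusap1 5 and 62 UMIs (3.2, 1.30–10.2). Ccna2 (0.710), Mcm5 (1.03) and Tpx2 (1.06) had the lowest ratios, and Mki67 had 46.8 and 111 CPM.

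Regulatory T-like cells (63 and 136 cells) had 1904 and 2339 CPM (1.23, 1.13–1.34), and 11 of 29 members were higher by 1.5-fold, beside 13.2% of all genes, and 0 lower, beside 7.69%. Ccna2 (16.4 and 36.0 CPM), Mcm5 (19.1 and 39.6 CPM) and Mcm2 (21.8 and 44.4 CPM) had the largest ratios, of 2.20, 2.07 and 2.03. They rest on 6 and 30 UMIs of Ccna2, 7 and 33 of Mcm5 and 8 and 37 of Mcm2. Cenpa (186 and 139 CPM), Mcm4 (70.9 and 56.4 CPM) and Pclaf (134 and 108 CPM) had the smallest. These values rest on few cells: the 5 cells richest in member UMIs held 36.8% and 23.4% of them in CD8 T-like, 53.4% and 33.3% in CD4 T-like and 79.9% and 49.6% in regulatory T-like cells.

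Within CD8 T-like cells, the member level depended on the sub-cluster. That led by Ly6c2, Cd8b1 and Ifngas1 (38 and 82 cells) had 2590 and 609 CPM, and that led by Gm156, Tmem163 and Prf1 (49 and 122 cells) had 2597 and 1964 CPM. The latter also had 88.2 CPM of Cd4 over both libraries, near the 92.5 CPM of regulatory T-like cells. The other CD8 T-like sub-clusters had 2.76 CPM of Cd4 or less. A small sub-cluster led by Atp2b2, Ptprk and Xcl1 (12 and 36 cells) had 2459 and 3582 CPM. The sub-cluster led by Fam241a, Gm14085 and Dapl1 had the lowest level in the library labelled KPC-shV, with 401 and 919 CPM. It held 26 of 125 and 160 of 400 CD8 T-like cells, so the class was made of unlike sub-clusters in the 2 libraries. The level was thus lower in 2 sub-clusters and higher in the other 2.

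**Figure D5:**
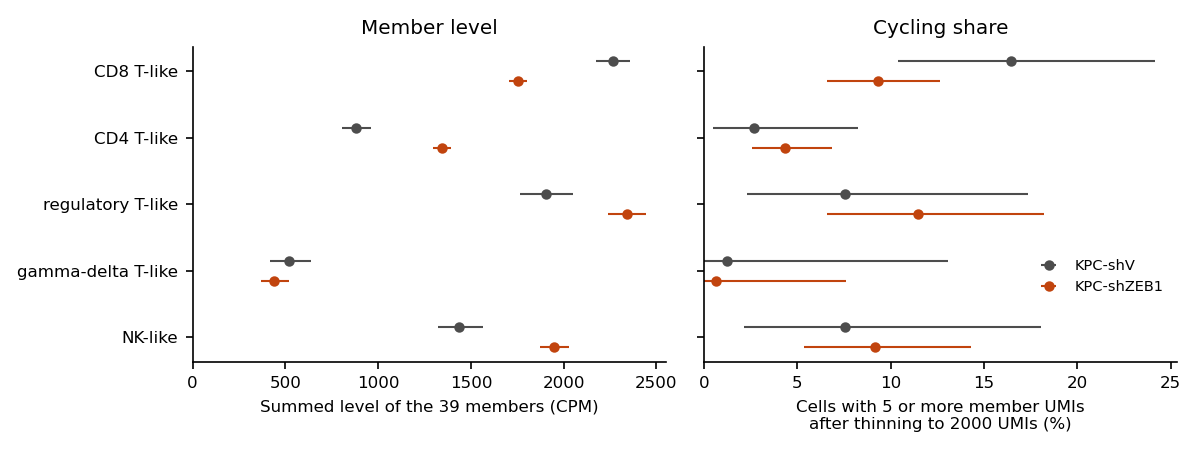
Summed level of the 39 members in CPM (left) and percent of cells with 5 or more member UMIs among 2000 UMIs (right) in T-cell classes and NK-like cells of each library; lines are 95% intervals for counting error only. CD8 T-like cells have 2264 and 1752 CPM and CD4 T-like cells 880 and 1344 CPM, so the libraries lie in opposite order, and on the right the intervals of the 2 libraries overlap in every class.

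Outside the members, no list had a common direction in T-like cells apart from the G1 genes and CDK inhibitors. Among all 11262 genes tested, 6432 had a ratio above 1 and 4.04% were lower by 1.5-fold. Of 30 other S genes, 11 had a ratio above 1 and 3 were lower by 1.5-fold: Orc1 (16.6 and 9.87 CPM), Dtl (53.4 and 34.0 CPM) and Ung (11.5 and 7.60 CPM). Rad51ap1, Pold1 and Hells had the largest ratios, of 1.36, 1.32 and 1.30. Of 37 other G2/M genes, 17 had a ratio above 1; Cenpw (0.581), Cdc25b (0.648) and Kif22 (0.672) were the lowest and Spc25 (1.38), Nuf2 (1.35) and Hmmr (1.32) the highest. Rrm1 and Rrm2 had 1.06 and 1.02, Hmgb2 0.806 and Foxm1 0.894. Of 9 G1 cyclins and kinases, only Ccnd3 was above 1 (330 and 404 CPM, 1.22), with Ccnd1 at 0.982 and Ccnd2 at 0.962. Of 6 CDK inhibitors, 0 were above 1 and 3 were lower by 1.5-fold: Cdkn2b (7.82 and 4.04 CPM), Cdkn2d (45.1 and 25.2 CPM) and Cdkn2c (17.9 and 10.4 CPM). Cdkn1a had 0.879, Cdkn1b 0.973 and Cdkn2a 0.825, and Cdkn1c was near its floor with 4 and 19 UMIs.

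Endothelial-like cells had the largest difference of any class. All members together had 539 and 1818 CPM, a ratio of 3.38 (3.17–3.59), with 4.50 for G2/M and 2.09 for S members. Of 37 members with at least 30 UMIs, 35 were higher by 1.5-fold, beside 10.6% of all genes, and 0 were lower, beside 7.34%. In single libraries, 19 members reached 30 UMIs with KPC-shV and 34 with KPC-shZEB1. The kinesin gene Kif4 had 2.50 and 39.1 CPM, Plk1 2.50 and 19.0 CPM and Nusap1 6.44 and 41.9 CPM, with ratios of 15.6, 7.58 and 6.5. Mcm2 (18.6 and 22.3 CPM, 1.20), Pcna (58.7 and 87.1 CPM, 1.48) and Mcm6 (29.0 and 44.1 CPM, 1.52) had the smallest ratios. The same genes had the smallest ratios in tumour-like cells, but there they were lower in the library labelled KPC-shZEB1 (0.876, 0.964 and 0.901).

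The class was small, with 147 and 80 cells. Its 5 richest cells held 37.0% and 46.6% of the member UMIs, and the share of 16.4% stands for an expected 12.4 cycling cells against 5.43. Tumour transcripts were also present: Epcam, Krt8, Krt18 and Krt19 summed to 1095 CPM in cycling and 480 CPM in other cells with KPC-shV, and to 370 and 301 CPM with KPC-shZEB1. Summed over the whole lists, tumour markers (10 of 10 with a UMI) had 594 and 384 CPM and granulocyte markers (10 of 10) 1936 and 717 CPM in the class, both lower with KPC-shZEB1. Monocyte-macrophage markers (10 of 10) had 598 and 1988 CPM, fibroblast markers (7 of 7) 457 and 767 CPM and pericyte markers (6 of 6) 255 and 414 CPM, and these were higher, as the members were. The shifts in monocyte-macrophage and granulocyte markers were not particular to this class. In tumour-like cells these markers had 763 and 1871 CPM and 1543 and 824 CPM, and in B-like cells 868 and 2294 CPM and 1349 and 832 CPM. Endothelial markers (6 of 6) had 5440 and 5528 CPM. The part of other cell types in the result was not tested. When cells with 3 or more UMIs of other classes' markers were left out, only 28 and 18 cells remained, the ratio was 1.31 and no member passed 1.5-fold. Only members with at least 30 UMIs in the cells left could be counted, so the last value cannot show that no member differed. The cells left out included 4 of 4 and 13 of 13 called cycling at equal depth.

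Monocyte-macrophage-like cells (1599 and 2483 cells) had nearly equal S levels of 376 and 368 CPM and G2/M levels of 546 and 629 CPM (1.15, 1.12–1.18). No member passed 1.5-fold in either direction, beside 10.1% of all genes higher and 2.24% lower. Mki67 (83.3 and 120 CPM, 1.44), Prc1 (18.6 and 24.8 CPM) and Cenpe (19.9 and 26.5 CPM) were the highest. Ccna2 (14.5 and 11.1 CPM, 0.767), Mcm2 (15.6 and 13.0 CPM) and Pclaf (67.9 and 58.0 CPM) were the lowest. The ratio of Mki67 was thus above the summed ratio of the members, which was 1.08.

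Fibroblast-like cells (358 and 381 cells) had S levels of 190 and 194 CPM and G2/M levels of 419 and 447 CPM, and no member passed 1.5-fold, beside 7.16% higher and 6.23% lower among all genes. Mki67 (37.0 and 53.8 CPM), Kif15 (6.08 and 8.60 CPM) and Kif11 (9.40 and 12.5 CPM) had the largest ratios. Aurkb (5.35 and 3.98 CPM), Cdc6 (3.60 and 2.68 CPM) and Gins2 (6.18 and 4.81 CPM) had the smallest. Without cells holding 3 or more UMIs of other classes' markers, 36 and 23 cells remained and the summed ratio was 5.63 in place of 1.05. This exclusion took out 15 of 16 and 17 of 19 fibroblast-like cells called cycling at equal depth. The ratio therefore rests on few such cells. In dendritic-like cells (119 and 374 cells), 1 member passed in each direction, beside 11.0% of all genes higher and 6.12% lower. Cdc6 (3.01 and 4.68 CPM), Prc1 (16.8 and 24.5 CPM) and Uhrf1 (20.5 and 27.9 CPM) were the highest and Aurkb (16.8 and 11.0 CPM), E2f8 (17.5 and 12.2 CPM) and Cenpf (43.9 and 30.9 CPM) the lowest. Cycling among dendritic-like cells was found in the cluster led by Ccl17, Plet1 and Htr7, with shares of 20.1% and 21.8%, against 0.0245% and 1.24% in mature dendritic-like cells. With the same exclusion, 51 and 73 dendritic-like cells remained and the summed ratio was 0.337 in place of 1.02. It took out 9 of 13 and 50 of 52 dendritic-like cells called cycling at equal depth, so this ratio also rests on few.

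Granulocyte-like cells (6864 and 4342 cells) had 280 and 401 CPM (1.43, 1.39–1.48), but here the median ratio of all genes was itself 1.21, which leaves 1.18 relative to it. Of 39 members, 19 were higher by 1.5-fold, beside 24.1% of all genes, and 0 were lower, beside 3.39%. Cenpe (4.85 and 9.59 CPM), Cenpf (5.69 and 11.2 CPM) and Kif4 (40 and 46 UMIs) had the largest ratios, near 2.0, and Cdc45 (2.58 and 2.23 CPM), Aurkb (1.66 and 1.63 CPM) and Cdc20 (5.95 and 5.95 CPM) the smallest. A cell in this class seldom held more than 1 or 2 member UMIs, and 44.0% and 33.8% of the cells held 0. How much of the 280 and 401 CPM came from free RNA was not tested. Subtracting them from the other classes, whose cells differ in depth, gave summed ratios of 1.22 in tumour-like, 0.855 in T-like and 0.930 in monocyte-macrophage-like cells.

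NK-like cells (54 and 183 cells) had S levels of 610 and 718 CPM and G2/M levels of 829 and 1232 CPM, a summed ratio of 1.36 (1.24–1.49). Of 32 members, 14 were higher by 1.5-fold, beside 14.3% of all genes, and 0 were lower, beside 6.78%. With KPC-shV alone, 6 members reached 30 UMIs, against 27 with KPC-shZEB1. Members such as Kif15 therefore entered this count only through the library labelled KPC-shZEB1. Kif15 had 1 and 54 UMIs (16.4, 2.82–659), Kif4 7.82 and 34.8 CPM and Ccna2 5.21 and 22.9 CPM. Ube2c (93.8 and 69.6 CPM), Mcm4 (54.7 and 42.7 CPM) and Mcm2 (28.7 and 23.7 CPM) were the lowest. With KPC-shV, 5 cells held 66.1% of these UMIs, and the summed ratio was 0.853 when cell cycle genes were allowed to shape the clusters. B-like cells (290 and 1229 cells) had S levels of 207 and 240 CPM and G2/M levels of 297 and 310 CPM. Of 27 members, 11 were higher by 1.5-fold, beside 13.0% of all genes, and 1 was lower, beside 4.12%. Only 4 members reached 30 UMIs with KPC-shV alone, against 24 with KPC-shZEB1. Uhrf1 (3.38 and 10.5 CPM), Cenpf (3.38 and 8.49 CPM) and Kif20b (5.92 and 13.2 CPM) were the highest and Cdc20 (10.1 and 4.91 CPM), Cenpa (118 and 87.5 CPM) and Mcm4 (38.0 and 29.0 CPM) the lowest.

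Genes that were not used to call cycling cells followed the members closely. In tumour-like cells, 215 and 292 cells were called cycling at 2000 UMIs. Of the other S genes, 30 of 30 were higher by 1.5-fold in these cells than in the remaining tumour-like cells in both libraries (median ratios 3.90 and 3.73), and 39 of 40 other G2/M genes were (9.55 and 8.17), beside 11.5% and 11.3% of all genes that are not members. In monocyte-macrophage-like cells, 29 and 30 of 30 other S genes and 39 of 40 other G2/M genes were higher, beside 14.2% and 13.5% of genes. In T-like cells, with 28 and 58 cycling cells, the counts were 24 of 25 and 30 of 30 S genes and 22 of 24 and 35 of 36 G2/M genes, beside 22.1% and 21.4%. The cycling cells were the deeper ones, with medians of 35606 and 34034 UMIs against 25244 and 24223 in tumour-like cells. In T-like cells the medians were 15553.5 and 16425.5 UMIs against 5166.5 and 4769. Of the cycling T-like cells, 85.7% and 82.8% held 3 or more UMIs of Epcam, Krt8, Krt18 and Krt19, against 23.9% and 30.6% of the others. This count follows depth. As CPM, the level of these genes was 526 in cycling against 308 in other T-like cells with KPC-shV. With KPC-shZEB1 it was 327 against 370 CPM, so lower in cycling cells.

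D cyclins and inhibitors did not share one direction between cycling and other cells. Ccnd3 was lower in cycling T-like cells, with 134 against 383 CPM and 134 against 460 CPM in the 2 libraries, and in cycling tumour-like cells, with 91.1 against 117 CPM and 99.0 against 145 CPM. Ccnd1 was higher in cycling tumour-like cells (259 against 204 CPM and 303 against 227 CPM). Cdkn2d, an inhibitor of Cdk4 and Cdk6, was higher in cycling tumour-like (2.19 and 2.52) and monocyte-macrophage-like cells (3.23 and 3.72), and Cdkn2c had ratios of 8.15 and 8.65 in the latter. Cdkn1b, which holds cells in G1, was lower in cycling T-like cells (0.527 and 0.501). Cdkn1c pointed opposite ways in tumour-like cells, with 40.4 against 19.0 CPM with KPC-shV and 7.50 against 14.2 CPM with KPC-shZEB1.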

How the data were processed

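Single-cell 3' libraries (10x Chromium v3.1) of 1 KPC-shV and 1 KPC-shZEB1 tumour were analysed. The deposited values are raw UMI counts of genes in barcodes; per the labels and file headers, Cell Ranger 7.0.1 and the mm10 genome were used. Whether intronic reads were counted is not given in the sources used here, and counts of 3' ends were not compared between genes. The members and lists were chosen with earlier results of these data known. Of 12594 and 13271 barcodes, those with 500 genes or more, between 1000 and 60000 UMIs and no more than 15% of UMIs from mitochondrial genes were kept, and 319 (2.72%) and 334 (2.68%) cells with a Scrublet score above 0.2 (scanpy 1.11.5) were removed, a threshold set after the score histograms were seen. The kept cells held 101167722 and 119196328 UMIs.

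Both libraries were clustered together without integration (3000 variable genes without the cell cycle genes, 30 principal components, 20 neighbours, leidenalg 0.10.2 at resolution 1), and T and NK clusters again (2000 genes, 20 components, resolution 1.5). Clusters were named "X-like" from marker lists, by a rule that was set after names had been seen. Lymphocyte sub-clusters 0 and 11 stayed unnamed and were moved out of the T-like class after values had been seen. Over both libraries they had 251 and 260 CPM of the T-cell gene Cd3e, a level within that of the named T-cell sub-clusters. NK sub-clusters 6 and 10 had 7.22 and 16.2 CPM. The unnamed sub-clusters also had 74.6 and 159 CPM of the NK marker Klrb1c.

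CPM are UMIs of a gene per 1000000 UMIs of the class, with exact Poisson intervals. Shares have Clopper-Pearson intervals, and ratios exact intervals conditional on the summed counts. All cover counting error only. The share at 2000 UMIs is the mean chance of 5 or more member UMIs over all draws and replaced 1 random draw after that draw had been seen. With 1 library per group no test was made. Genes with at least 30 UMIs over both libraries entered counts past 1.5-fold, and log2 ratios had 1 CPM added. A gene could thus enter through its UMIs in 1 library alone. All 39 members may be named; the 3 largest and 3 smallest ratios per class were, with the same for other lists in tumour-like and T-like cells and all D cyclins and CDK inhibitors. Genes named outside this rule (Cdk4, Cdk6, and marker or leading genes) were chosen after their values were seen. Acinar-like cells (20 and 267) and smaller classes were not compared. Some alleles of the KPC line and 1 gene list are not reported here. The counting steps were tested on simulated data.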

Additional observations from a re-analysis of the deposited data

Results flagged for a closer look

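Summed member levels had unlike ratios between cell classes under the same contrast. The ratio was 1.26 in tumour-like, 1.05 in fibroblast-like, 3.38 in endothelial-like, 1.08 in monocyte-macrophage-like, 1.43 in granulocyte-like and 1.36 in NK-like cells. It was 0.950 in T-like cells, with 0.774 in CD8 T-like, 1.53 in CD4 T-like and 1.23 in regulatory T-like cells, and 0.669 in unnamed lymphocytes. The T-like class also held 32 and 57 gamma-delta T-like cells. With 1 library per group the difference between classes was not tested.

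Signal was also present in barcodes outside the comparisons. Barcodes above 60000 UMIs had 2626 CPM of members in the library labelled KPC-shZEB1 and 2510 CPM in that labelled KPC-shV, and barcodes removed by doublet score had 814 and 645 CPM.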

How the results depend on the processing

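Of the results behind each comparison, 151 values under an alternative stayed within the counting interval of the reported value, or within 1.5 times of a reported count, 52 moved and 2 reversed; the causes were not tested. In tumour-like cells, keeping barcodes above 60000 UMIs gave a summed ratio of 1.10, a G2/M ratio of 1.14, a G2/M part 2.21 points higher and 0 members past 1.5-fold, and turned the summed ratio of fibroblast-like cells to 0.974. Leaving out the cluster led by Zfp804b gave 1.19, 1.30 and 3 members, and leaving out the shallow cluster gave 1.29, 1.42 and a part of 6.27 points. Resolution 2 gave 1.28 and 1.40, and clustering each library alone 1.20 and 1.31. The summed ratio was 1.21 without Top2a and Mki67 (G2/M part 4.71 points), 1.18 as the mean of each cell's own CPM and 1.22 with the granulocyte-like level subtracted, and genes that are not members gave a part of 2.82 points. The share ratio of 1.05 at own depth became 1.32 at 2000 UMIs and 1.22 at 1000 UMIs with a minimum of 3; 1 random draw of 2000 UMIs gave 1.33.

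In T-like cells, keeping doublets gave a summed ratio of 1.01 and a G2/M ratio of 1.03, with 2 members higher and 0 lower. The members higher were also 2 with no upper limit, with 200 genes and 500 UMIs as minimum, and with each library clustered alone (3 lower). Cell cycle genes among the variable genes gave a G2/M ratio of 1.02, a part 2.06 points higher and 0 members lower, and in NK-like cells a summed ratio of 0.853 and an S ratio of 0.667. With the unnamed lymphocyte sub-clusters the part was 1.73 points higher, the S ratio 0.882 and the Pclaf ratio 0.560. The share ratio became 0.792 at 2000 UMIs, and the summed ratio 0.855 with the granulocyte-like level subtracted.

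A further setting left out cells with 3 or more UMIs of other classes' markers, a limit not scaled to depth. These were Ptprc, S100a8, S100a9 and Cd74 for tumour-like cells, and Epcam, Krt8, Krt18 and Krt19 for all other classes. Most tumour-like, endothelial-like, fibroblast-like, dendritic-like and monocyte-macrophage-like cells were removed, and fewer cells of other classes. Of cells called cycling at 2000 UMIs, this setting left out 206 of 215 and 285 of 292 tumour-like cells. In monocyte-macrophage-like cells it left out 86 of 106 and 158 of 166. In T-like cells it left out 24 of 28 and 48 of 58, and in endothelial-like cells 4 of 4 and 13 of 13. In fibroblast-like cells it left out 15 of 16 and 17 of 19, and in dendritic-like cells 9 of 13 and 50 of 52. This setting thus left few cycling cells behind the ratios of fibroblast-like and dendritic-like cells. It gave, in tumour-like cells (117 and 83 left), a share ratio of 1.18, a summed ratio of 1.22, a G2/M ratio of 1.33 and 0 members higher; in T-like cells (225 and 670 left), a summed ratio of 1.19, a G2/M ratio of 1.15, a difference in the G2/M part of -2.42 points, 10 members higher and 0 lower, and Cdk1 at 1.59. In monocyte-macrophage-like cells it gave a share ratio of 1.07, 0.597 at 2000 UMIs, a summed ratio of 0.912, a G2/M ratio of 0.987 and 7 members lower. In endothelial-like cells (28 and 18 left) it gave 1.31, 0 members and a share ratio of 0.972 in place of 1.23 at own depth, with none at 2000 UMIs. In dendritic-like cells (51 and 73 left) it gave share ratios of 0.882 at own depth and 0.280 at 2000 UMIs, a summed ratio of 0.337, a G2/M ratio of 0.260, a difference in the G2/M part of -16.2 points and 8 members lower. In fibroblast-like cells (36 and 23 left) it gave a share ratio of 0.626, a summed ratio of 5.63, S and G2/M ratios of 3.35 and 8.20 and 4 members higher. Under this setting a member was counted only with at least 30 UMIs in the cells left. A count of 0 members therefore cannot show that none differed.

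In monocyte-macrophage-like cells, the share ratio of 1.21 became 1.07 at 2000 UMIs, 1.06 at 1000 UMIs, 1.09 at a minimum of 3 member UMIs and 1.38 at 10, and the summed ratio 0.930 with the granulocyte-like level subtracted, which gave 0.728 in fibroblast-like and 5.49 in endothelial-like cells. The endothelial-like ratio was 3.82 with the lower cell minimum, 3.08 without Top2a and Mki67 and 2.63 as the mean of each cell's CPM. In granulocyte-like cells, the share ratio was 1.01 at a minimum of 10, and genes that are not members gave a difference in the G2/M part of -2.44 points. The settings that leave out tumour-like clusters, that add the unnamed lymphocyte sub-clusters, and the summed ratios without Top2a and Mki67 were chosen after seeing the data. No paired analysis was possible because each group has 1 library and the labels give no replicate numbers.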

Other observations

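The unnamed lymphocyte sub-clusters, led by Klra genes and by Il4, held 92 and 264 cells. Their members summed to 1195 and 799 CPM, with S levels of 632 and 316 CPM and G2/M levels of 562 and 483 CPM, and their cycling shares at 2000 UMIs were 6.61% and 2.15%. The S members thus made up the larger part of member UMIs in the library labelled KPC-shV alone, where G2/M members were 47.1% of them, against 60.4% in the other.

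Acinar-like cells, 20 and 267, had cycling shares of 0.0103% and 0.123% at 2000 UMIs.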
